A study of Mus musculus with 5 samples.

Results

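Transcript levels of genes for cholesterol synthesis, uptake, trafficking and efflux were followed in C3H10T1/2 cells, a mouse line of mesenchymal stem cells, after they had been turned into adipocytes. The genes were a list of 33 chosen by name and function, with earlier results of these data known. Of these, 30 had a probe set that names that gene alone, out of 18193 genes on the array, and all 30 reached the detection floor used here, an intensity of 8.39 on at least 1 array. Acat2, Soat1 and Nr1h2 had no such probe set and were not analysed here. Each gene is represented by its brightest probe set.

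The differentiated cells were kept for 6 h with the solvent DMSO, butein, sulfuretin or resveratrol. Their total RNA was read on 5 Affymetrix arrays, with 1 array in each group. A second solvent array, called DMSO1 as in the labels, is the control of resveratrol. Butein (a chalcone) and sulfuretin (an aurone, in which the bridge of a chalcone is closed into a ring) both carry a catechol, while resveratrol is a stilbene with no catechol. The labels give no doses, so the compounds are set side by side without assuming matched doses. The cells are an immortal line differentiated in culture, and the labels name no separate cultures or replicates.

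Of 10 adipocyte marker genes 8 had a probe set and all 8 were above the floor, with Adipoq, the adiponectin gene, between 6122 and 7202 on the 5 arrays. The summed adipocyte markers, carried by Adipoq and Fabp4, ran from 17695 with butein to 20122 in DMSO. With butein 8 of the 8 were lower (median log2 difference -0.27, lowest -0.49), with sulfuretin 4 of 8 (-0.02, lowest -0.38) and with resveratrol 8 of 8 (-0.12, lowest -0.48). The part of these lower adipocyte markers in the results for the sterol genes was not tested. Markers of other cells, whose levels cannot be set against those of other probe sets, ranged in sum over the arrays from 53.2 to 88.3 for 6 macrophage and blood cell genes, 20.9 to 30.3 for 4 endothelial genes, 65.7 to 207.9 for 4 skeletal muscle genes and 26.7 to 47.4 for 4 hepatocyte genes. Of the macrophage and blood cell markers, Adgre1, Ptprc and Itgam were under the floor on all arrays, while Cd14, Csf1r and Cd68 reached it. Cd14 read 25.7 in DMSO and 46.1 in DMSO1, Csf1r 16.0 and 19.7, and Cd68 5.65 and 9.5. The DMSO, butein and sulfuretin arrays share a median intensity of 6.85, against 11.1 for DMSO1 and 11.5 for resveratrol, so levels are compared within each set only. Exactly equal values on paired arrays were common, in 29.9% of counted genes for butein, 32.5% for sulfuretin and 33.1% for resveratrol. Their origin is not given in the sources used here, so an exact tie is not read as a measured lack of change, and ties also lower the shares of all genes called lower or higher.

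As background, cells make cholesterol from acetyl-CoA through mevalonate, isoprenoids and squalene. When sterols run low in the endoplasmic reticulum, the escort protein SCAP carries the precursor of the transcription factor SREBP2 to the Golgi, where proteases release its active part, and genes for synthesis and uptake are turned on. INSIG proteins hold SCAP back when sterols are plentiful. In that state oxysterols activate the nuclear receptors LXR, which raise the transporters ABCA1 and ABCG1 for efflux and the ubiquitin ligase MYLIP, which degrades lipoprotein receptors. Adipocytes hold a large store of unesterified cholesterol in their lipid droplets.

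The start regions of the genes are shown first, because the members fall into the SREBP2-driven and LXR-driven arms by how they are known to be regulated. SREBP2 is a weak activator alone and acts beside NF-Y, which binds the CCAAT box, and Sp1, which binds the GC box. RefSeq windows of assembly GRCm38.p6, from 250 bases before to 50 after the transcript start, were found for 23 of the 30 genes. The 250 bases before the start follow, 5′ to 3′ in the direction of transcription, for 4 enzyme genes that were at least 1.5-fold lower with butein, for Insig1, which was not, and for the LXR target Mylip. Capitals mark the sterol regulatory element core TCACNCCAC and the CCAAT box, read as ATTGG where it lies on the other strand.
Hmgcs1: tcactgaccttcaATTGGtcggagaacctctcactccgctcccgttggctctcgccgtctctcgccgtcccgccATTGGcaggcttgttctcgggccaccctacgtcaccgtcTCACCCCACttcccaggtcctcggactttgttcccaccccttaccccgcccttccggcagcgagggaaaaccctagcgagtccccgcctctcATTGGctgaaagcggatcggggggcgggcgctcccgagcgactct
Mvd: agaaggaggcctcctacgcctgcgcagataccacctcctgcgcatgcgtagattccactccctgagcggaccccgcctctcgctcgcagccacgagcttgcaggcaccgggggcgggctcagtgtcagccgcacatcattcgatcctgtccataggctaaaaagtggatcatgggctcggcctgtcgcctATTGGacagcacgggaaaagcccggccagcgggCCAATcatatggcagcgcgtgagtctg
Lss: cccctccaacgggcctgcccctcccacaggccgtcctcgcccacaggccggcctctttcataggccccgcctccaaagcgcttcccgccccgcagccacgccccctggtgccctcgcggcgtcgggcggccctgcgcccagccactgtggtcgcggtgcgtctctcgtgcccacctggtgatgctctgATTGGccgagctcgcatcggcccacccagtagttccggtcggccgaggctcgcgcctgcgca
Msmo1: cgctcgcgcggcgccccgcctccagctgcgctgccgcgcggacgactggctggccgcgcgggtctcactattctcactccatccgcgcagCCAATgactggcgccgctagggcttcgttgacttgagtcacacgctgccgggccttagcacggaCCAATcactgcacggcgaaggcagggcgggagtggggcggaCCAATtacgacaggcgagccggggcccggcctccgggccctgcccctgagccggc
Insig1: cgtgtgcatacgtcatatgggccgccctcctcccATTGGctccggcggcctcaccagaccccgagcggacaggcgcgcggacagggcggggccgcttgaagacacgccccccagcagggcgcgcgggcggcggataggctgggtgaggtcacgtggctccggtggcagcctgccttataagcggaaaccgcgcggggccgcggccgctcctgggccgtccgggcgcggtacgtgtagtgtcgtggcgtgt
Mylip: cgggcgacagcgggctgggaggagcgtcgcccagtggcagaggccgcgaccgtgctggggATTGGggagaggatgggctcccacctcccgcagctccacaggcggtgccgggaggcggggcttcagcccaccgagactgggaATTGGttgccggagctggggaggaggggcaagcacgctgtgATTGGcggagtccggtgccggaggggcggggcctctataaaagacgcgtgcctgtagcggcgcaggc
These windows are chr13:119690101-119690350 on the plus strand for Hmgcs1, chr8:122443423-122443672 on the minus strand for Mvd and chr10:76531355-76531604 on the plus strand for Lss. Those of the others are chr8:64733579-64733828 on the minus strand for Msmo1, chr5:28071162-28071411 on the plus strand for Insig1 and chr13:45389492-45389741 on the plus strand for Mylip. The element core was present in Hmgcs1, where it begins 137 bases before the start, and in no other of the 23 genes. It was found in 1.24% of all 32851 windows. A CCAAT box on either strand was present in the windows of all 17 SREBP2-driven genes that had one, Insig1 included, and in 1 of 3 LXR-driven genes, Mylip. Among counted genes with a window, 42.5% had a CCAAT box. The GC box GGGCGG was found in 15 of the 17 and in 2 of the 3, against 67.0% of counted genes. The letters matched do not show that a factor binds there.

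Most cholesterol synthesis genes were lower with each compound. The 1.5-fold criterion used for the counts was set with earlier results of these genes known. Of 30 members, 8 were at least 1.5-fold lower with butein than in DMSO and 1 was at least 1.5-fold higher, while 2.47% of the 12439 genes above the floor were that much lower and 5.01% that much higher. With sulfuretin 0 were that much lower (background 0.378%) and 1 was higher (1.36%). With resveratrol 2 were lower than in DMSO1 (0.362%) and 0 higher (0.338%). After joint normalization of the 5 arrays the resveratrol count was 4 lower, and against the DMSO array it was 8 lower and 1 higher, beside 7 lower and 1 higher for butein against DMSO1. On that last setting the medians of the SREBP2-driven genes were -0.39 for both compounds. The shares of all genes past 1.5-fold after joint normalization were not computed, so these counts cannot be set against a background. At 1.2-fold or more, 15 members were lower and 2 higher with butein (background 12.2% and 13.6%), 10 and 3 with sulfuretin (4.12% and 7.75%), and 15 and 0 with resveratrol (3.25% and 2.58%). No member reached 2-fold in either direction, a change seen downward and upward in 0.297% and 2.03% of all genes with butein, 0.0482% and 0.193% with sulfuretin, and 0.0643% and 0.0804% with resveratrol. With 1 array per group no test within a comparison is possible, and lower transcript per cell cannot be told apart from fewer expressing cells in such bulk RNA. When the solvent arrays were taken as replicates, limma called 0 members at an adjusted p under 0.05 for any compound. Its lowest unadjusted p was 0.0458, for Hmgcs1 with resveratrol, the 1 value under 0.05 among members in the 3 comparisons. That fit has 1 residual degree of freedom and called 0 of all 12439 genes after adjustment, with 352, 38 and 30 of them under 0.05 before it for butein, sulfuretin and resveratrol.

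**Figure D1:**
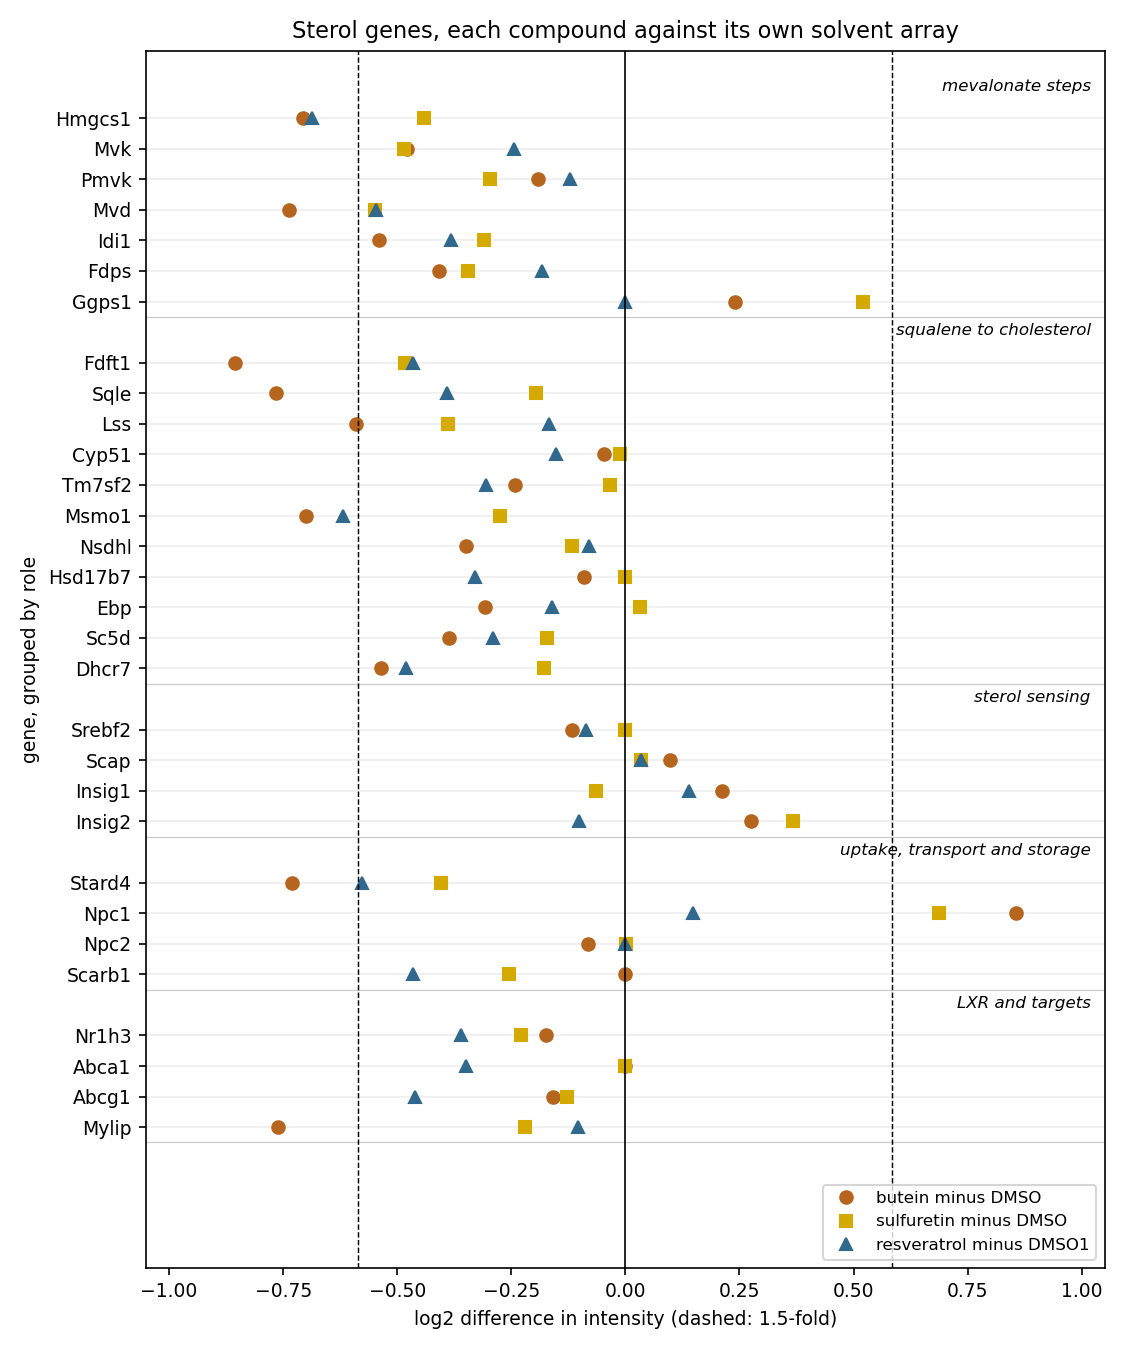
Log2 difference in intensity between each compound and its own solvent array (x axis) for the 30 measured genes, grouped by role (y axis); each symbol is 1 pair of arrays and the dashed lines mark 1.5-fold. The synthesis genes lie to the left of 0 with few exceptions, Ggps1 among them, and Npc1 lies furthest to the right.

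The first steps, from acetyl-CoA units to farnesyl and geranylgeranyl diphosphate, had 7 measured genes. With butein 6 of the 7 were lower (median log2 difference -0.48), with sulfuretin 6 (-0.34) and with resveratrol 6 (-0.24). Hmgcs1 (NCBI gene 208715) encodes the cytosolic synthase that makes HMG-CoA. Its intensity was 2357 in DMSO, 1444 with butein and 1735 with sulfuretin, and 2109 in DMSO1 against 1310 with resveratrol. Every treated array was thus below its own solvent array, by 1.63-fold, 1.36-fold and 1.61-fold. Another 3 Hmgcs1 probe sets gave log2 differences with butein between -0.90 and -0.79, and a dimmer one gave -1.90.

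Mvd (NCBI gene 192156), the decarboxylase that yields isopentenyl diphosphate, read 80.0 in DMSO, 48.0 with butein, 54.6 with sulfuretin, 102.8 in DMSO1 and 70.3 with resveratrol. It was 1.67-fold, 1.46-fold and 1.46-fold lower, the largest difference of any member with sulfuretin among those that were lower. Its second probe set moved less, with log2 differences of -0.20, -0.17 and -0.33. Idi1, which encodes the isomerase of that product, went from 642.6 in DMSO to 442.2 with butein and 518.6 with sulfuretin, and from 747.2 in DMSO1 to 573.1 with resveratrol. All 3 were under the criterion on this probe set, at 1.45-fold, 1.24-fold and 1.30-fold lower. The dimmer Idi1 probe set gave larger log2 differences of -0.89, -0.42 and -0.65.

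The kinases Mvk and Pmvk act in turn, on mevalonate and then on phosphomevalonate. They were the mevalonate genes with a lower value with sulfuretin than with butein, Mvk by 0.01 in log2 value. Mvk read 74.8 in DMSO, 53.6 with butein and 53.4 with sulfuretin, and 70.8 in DMSO1 against 59.8 with resveratrol. Pmvk read 270.6 in DMSO, 237.0 with butein and 220.2 with sulfuretin, and 242.1 in DMSO1 against 222.4 with resveratrol. Fdps, the farnesyl diphosphate synthase gene, was 1.33-fold, 1.27-fold and 1.13-fold lower. Ggps1 makes geranylgeranyl diphosphate, which goes to protein prenylation and not to sterols. It was the 1 enzyme gene with a higher value with butein, and with Ebp 1 of 2 with sulfuretin. It read 26.2 in DMSO, 31.0 with butein and 37.6 with sulfuretin, and exactly 68.4 on both arrays of the resveratrol pair. Its 3 other probe sets had log2 differences with butein of 0.02 to 0.68.

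Of the 11 measured genes from squalene to cholesterol, 11 were lower with butein (median log2 difference -0.39), 9 with sulfuretin (-0.17) and 11 with resveratrol (-0.31). Over all genes above the floor the median was 0 in each comparison, and 37.1%, 32.6% and 34% had a lower value. A higher value was found for 5, 6 and 3 of the 30 members, and for 33%, 34.8% and 32.9% of all genes. Fdft1 (NCBI gene 14137), squalene synthase, commits farnesyl diphosphate to sterols and was the member lowest with butein. It read 642.4 in DMSO, 354.9 with butein and 460.0 with sulfuretin, a difference of 1.81-fold and 1.40-fold. In the resveratrol pair it read 665.9 in DMSO1 and 482.4 with the compound, 1.38-fold lower. A second bright Fdft1 probe set gave log2 differences of -0.94, -0.47 and -0.43, while 2 dim ones lay between -0.29 and 0.11.

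Sqle (NCBI gene 20775) encodes squalene epoxidase, a rate-limiting oxygen-dependent step. Its intensity was 335.6 in DMSO, 197.3 with butein, 293.0 with sulfuretin, 429.8 in DMSO1 and 327.8 with resveratrol. The 1.70-fold lower value with butein stands beside 1.15-fold with sulfuretin and 1.31-fold with resveratrol. Lss, lanosterol synthase, read 236.4 in DMSO, 157.0 with butein, 180.6 with sulfuretin, 266.3 in DMSO1 and 236.9 with resveratrol. It passed the criterion with butein by little, at 1.51-fold.

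Msmo1 (NCBI gene 66234), the oxidase that removes methyl groups from carbon 4 of sterols, was past the criterion with both butein and resveratrol. It read 875.6 in DMSO, 539.0 with butein and 724.0 with sulfuretin, and 1300 in DMSO1 against 846.8 with resveratrol. The differences were 1.62-fold, 1.21-fold and 1.54-fold. Dhcr7, which reduces the last intermediate to cholesterol, followed the same order at 1.45-fold, 1.13-fold and 1.40-fold lower. Sc5d, the preceding desaturase, was 1.31-fold, 1.13-fold and 1.22-fold lower. A dim second Msmo1 probe set gave log2 differences of -0.74 with butein and -0.54 with sulfuretin. It read exactly 6.31 on both arrays of the resveratrol pair. With the mean of its probe sets the resveratrol difference of Msmo1 was -0.31. After joint normalization it was -0.32 against the DMSO array, so both were under the criterion.

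None of the remaining 5 genes of this stretch differed from control by more than 1.27-fold. Cyp51, the lanosterol demethylase, read 258.1 in DMSO, 249.6 with butein and 255.9 with sulfuretin, and 394.5 in DMSO1 against 354.8 with resveratrol, so its largest difference was 1.11-fold. A dimmer Cyp51 probe set gave a log2 difference of -0.55 with resveratrol. Hsd17b7, a sterol ketoreductase, read exactly 267.6 in DMSO and with sulfuretin, 251.3 with butein, 247.0 in DMSO1 and 196.4 with resveratrol. Nsdhl, Ebp and Tm7sf2, which carry out decarboxylation, isomerisation and reduction of sterol intermediates, had log2 differences between -0.35 and 0.03 over the 3 comparisons.

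**Figure D2:**
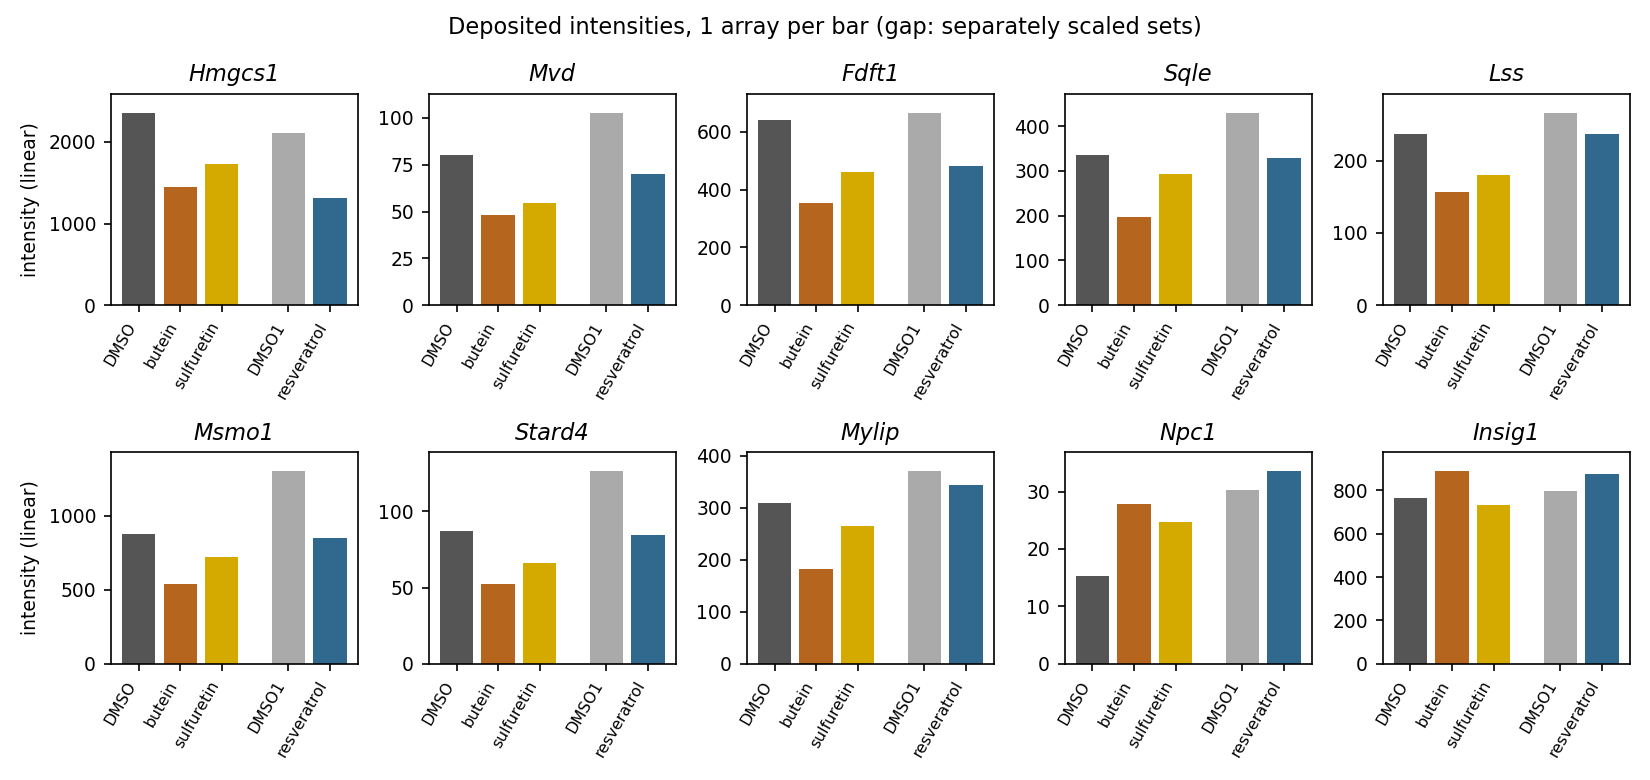
Deposited linear intensity (y axis, from 0) of 10 genes on the 5 arrays (x axis), 1 array per bar, with a gap between the sets that were scaled separately. The 7 genes from Hmgcs1 to Stard4 are lower in each treated bar than in their own solvent bar, Mylip is lowest with butein, Npc1 is higher with butein and sulfuretin, and Insig1 stays between 733.6 and 888.6.

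Of the 4 sterol-sensing genes, 1 was lower with butein, 1 with sulfuretin and 2 with resveratrol. Srebf2, which encodes SREBP2 and is among its own targets, read 53.1 in DMSO, 49.0 with butein and exactly 53.1 with sulfuretin, and 67.4 in DMSO1 against 63.5 with resveratrol. Scap, the escort gene, read 114.0, 122.0 and 116.6 in the first set and 158.8 and 162.6 in the second. Both genes thus stayed within 1.08-fold of their controls on the probe sets used.

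Insig1 (NCBI gene 231070) is a strong SREBP2 target in other cells, yet it read 767.2 in DMSO, 888.6 with butein and 733.6 with sulfuretin, and 796.4 in DMSO1 against 877.8 with resveratrol. It was higher by 0.21 in log2 value with butein and by 0.14 with resveratrol, where 19 of 21 SREBP2-driven members were lower with each. After joint normalization these differences were 0.22 and 0.20, beside -0.25 between DMSO1 and DMSO. Neither was thus larger than the difference between the solvent arrays. Insig1 has a single probe set on this array, so no second reading of it was available in these data. Insig2, the isoform less tied to SREBP2, read 142.1 in DMSO, 172.0 with butein and 183.3 with sulfuretin, 1.21-fold and 1.29-fold higher. In the resveratrol pair it read 227.4 and 211.9, 1.07-fold lower. Its 2 other probe sets were also higher with butein (log2 differences 0.30 and 0.54) and with sulfuretin (0.52 and 0.33), and disagreed in sign with resveratrol (-0.32 and 0.01).

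Among the uptake, transport and storage genes, Stard4 and Npc1 differed most with butein and with sulfuretin, in opposite directions, and Stard4 and Scarb1 with resveratrol, both lower. Stard4 (NCBI gene 170459), a carrier of sterol between membranes and a SREBP2 target, read 87.4 in DMSO, 52.6 with butein and 66.1 with sulfuretin, and 126.4 in DMSO1 against 84.8 with resveratrol. It was 1.66-fold, 1.32-fold and 1.49-fold lower. The next brightest Stard4 probe set gave log2 differences of -0.67, -0.50 and -0.73.

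Npc1 (NCBI gene 18145) encodes the membrane protein that moves cholesterol out of late endosomes. Its intensity was 15.4 in DMSO, 27.8 with butein and 24.8 with sulfuretin, and 30.3 in DMSO1 against 33.5 with resveratrol. The 1.81-fold and 1.61-fold higher values with butein and sulfuretin made it the single member past the criterion upward. It was also the dimmest member by its highest value, the 1 of 30 that stayed under the 75th percentile of probe set levels (40.0), and it had 1 probe set. Npc2, its soluble partner, was within 1.06-fold of control throughout. Scarb1, the receptor for high density lipoprotein, read exactly 21.9 in DMSO and with butein, 18.4 with sulfuretin, 50.1 in DMSO1 and 36.3 with resveratrol, 1.38-fold lower in the last pair.

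In the LXR arm 3 of 4 measured genes were lower with butein (median log2 difference -0.17), 3 with sulfuretin (-0.17) and 4 with resveratrol (-0.35), where 37.1%, 32.6% and 34% of all genes were lower. Against the DMSO1 array after joint normalization Abcg1 and Abca1 had higher values with butein (0.18 and 0.10) and with sulfuretin (0.24 and 0.10), and the sulfuretin median turned to 0.016. After that normalization 2 of the 4 were lower by more than the solvent arrays differed with butein, 2 with sulfuretin and 3 with resveratrol. The shares of all genes above the floor were 15.2%, 7.55% and 6.09%. Nr1h3, the gene of LXR alpha, read 29.3 in DMSO, 26.0 with butein and 25.0 with sulfuretin, and 56.6 in DMSO1 against 44.1 with resveratrol. Abca1 (NCBI gene 11303), which loads cholesterol onto apolipoproteins, read exactly 758.3 in DMSO and with both butein and sulfuretin, and 874.6 in DMSO1 against 686.9 with resveratrol, 1.27-fold lower. Its other 2 probe sets were at or under 8.95 on the first 3 arrays.

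Abcg1, which exports cholesterol to mature lipoprotein particles, read 78.7 in DMSO, 70.5 with butein and 72.0 with sulfuretin, and 91.6 in DMSO1 against 66.6 with resveratrol. It was 1.38-fold lower with resveratrol and no more than 1.12-fold lower with the other compounds. Mylip (NCBI gene 218203) differed most with butein and least with resveratrol. It read 309.3 in DMSO, 182.5 with butein and 265.6 with sulfuretin, and 370.1 in DMSO1 against 344.3 with resveratrol, so it was 1.69-fold, 1.16-fold and 1.08-fold lower. Mylip was the 1 LXR-driven member past the criterion in any comparison.

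The medians of both arms are given side by side. The 21 SREBP2-driven members (the synthesis genes with Insig1, Srebf2 and Stard4) had a median of -0.41 with butein, -0.20 with sulfuretin and -0.29 with resveratrol. The 4 LXR-driven members had -0.17, -0.17 and -0.35. The lists are small and unequal and the difference between them was not tested. Of the 21, 19 were lower with butein, 17 with sulfuretin and 19 with resveratrol.

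**Figure D3:**
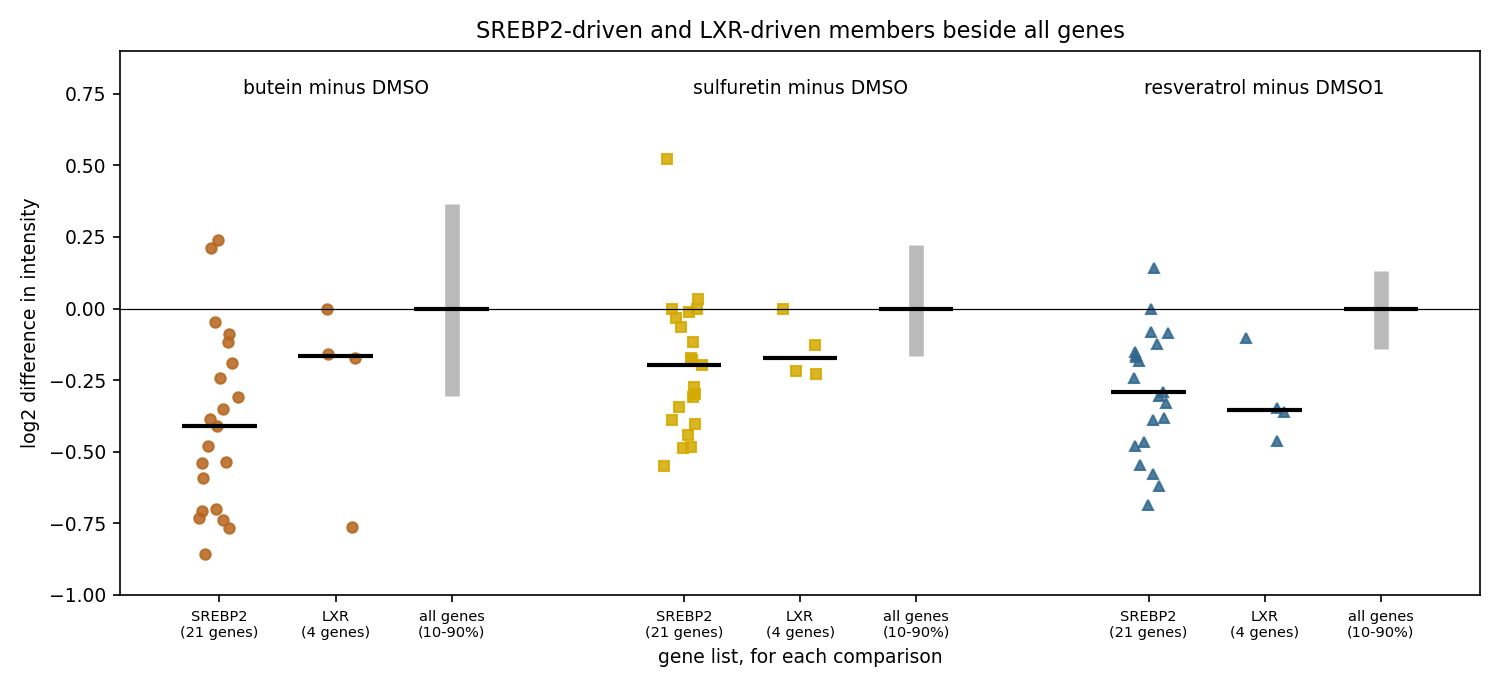
Log2 difference in intensity (y axis) for the 21 SREBP2-driven and 4 LXR-driven genes in each comparison (x axis), 1 point per gene with a black bar at the median, beside a grey band from the 10th to the 90th percentile of the 12439 genes above the floor. The SREBP2-driven medians are -0.41, -0.20 and -0.29, and the LXR-driven medians are -0.17, -0.17 and -0.35, against 0 for all genes.

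Butein and resveratrol have no control array in common, so their values for the same genes can be set against each other. Lower values with both, of any size, were found for 19 of the 21 SREBP2-driven genes and for 19.6% of all genes above the floor. At 1.2-fold or more with each, the count was 9 of 21, namely Hmgcs1, Mvd, Idi1, Fdft1, Sqle, Msmo1, Sc5d, Dhcr7 and Stard4, against 1.6% of all genes. Across the 21 genes the differences had a Pearson r of 0.82 and a Spearman rho of 0.80, compared with 0.41 and 0.36 across all genes above the floor. For sulfuretin and resveratrol, 16 of the 21 were lower with both (15.5% of all genes), and 6 of the 21 by 1.2-fold or more with each (0.643%). Their r and rho were 0.58 and 0.58 across the 21 and 0.22 and 0.19 across all. Genes on the same arrays are not independent, and these values only describe them.

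Direct comparison of the related compounds placed most of the enzymes higher with sulfuretin than with butein. Of the 21 SREBP2-driven genes 18 were higher, with a median log2 difference of 0.21, and 3 were lower. Over all genes above the floor 37% had a higher and 30.1% a lower value. At 1.2-fold or more 8 of the 21 were higher and 1 lower, against 8.93% and 8.99% of all genes. The widest gaps were 1.48-fold for Sqle, 1.46-fold for Mylip and 1.34-fold for Msmo1. None of the 30 members differed by 1.5-fold between the compounds, while 0.981% of all genes were that much higher with sulfuretin and 2.83% that much lower. At 2-fold the shares of all genes were 0.0965% and 1.04%. Insig1 was 1.21-fold lower with sulfuretin than with butein. The doses behind these arrays are not given, and a pair of single arrays gives no interval for the differences.

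DMSO and DMSO1 belong to separately scaled sets, so a gap between cultures and one between the sets cannot be told apart. The only measure of how far arrays without a compound differ is this solvent pair, once the 5 arrays are quantile normalized together. On that scale the SREBP2-driven genes differed between DMSO1 and DMSO by a median of 0.24 in absolute log2 value, against 0.31 for all genes above the floor. All 3 treated arrays lay below both solvent arrays for 11 of the 21 genes, and for 3.65% of all genes. These 11 were Dhcr7, Fdft1, Hmgcs1, Idi1, Lss, Msmo1, Mvd, Sc5d, Sqle, Stard4 and Tm7sf2. In the LXR arm Nr1h3 and Mylip showed the same separation, and Scarb1 did so among the other members. It was narrow for Tm7sf2, with a log2 difference of -0.04 for sulfuretin against DMSO. For Scarb1 the difference was -0.03 for butein against DMSO. Npc1 and Scap were above both solvent arrays on all 3 treated arrays, as were 4.44% of all genes, Scap by no more than 0.07 in log2 value on that scale against its own control.

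Single genes show how much the solvent pair can differ. Stard4 read 102.1 and 101.4 on the DMSO and DMSO1 arrays after joint normalization, and 61.6, 77.3 and 66.4 with butein, sulfuretin and resveratrol. Sqle read 372.1 and 364.4 in the solvents, against 220.4, 329.4 and 282.4. Mvk, by contrast, was 88.3 and 53.5 in the solvents, wider apart than any treated array from its own control. Against the other solvent array Mvk, Pmvk, Hsd17b7 and Srebf2 had a higher value with butein (log2 differences 0.23, 0.41, 0.46 and 0.19) and Ggps1 a lower one (-0.44). With sulfuretin these 4, Insig1 and Ebp had higher values (0.22 to 0.56) and Ggps1 a lower one (-0.17). With resveratrol Fdps, Nsdhl, Cyp51 and Ggps1 had higher values (0.20, 0.35, 0.09 and 0.65). Insig1 stayed higher with butein (0.47) and had -0.05 with resveratrol. Of the 21 genes, 13 were lower with butein by more than the solvent arrays differed, 9 with sulfuretin and 10 with resveratrol. The shares of all genes were 15.2%, 7.55% and 6.09%.

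**Figure D4:**
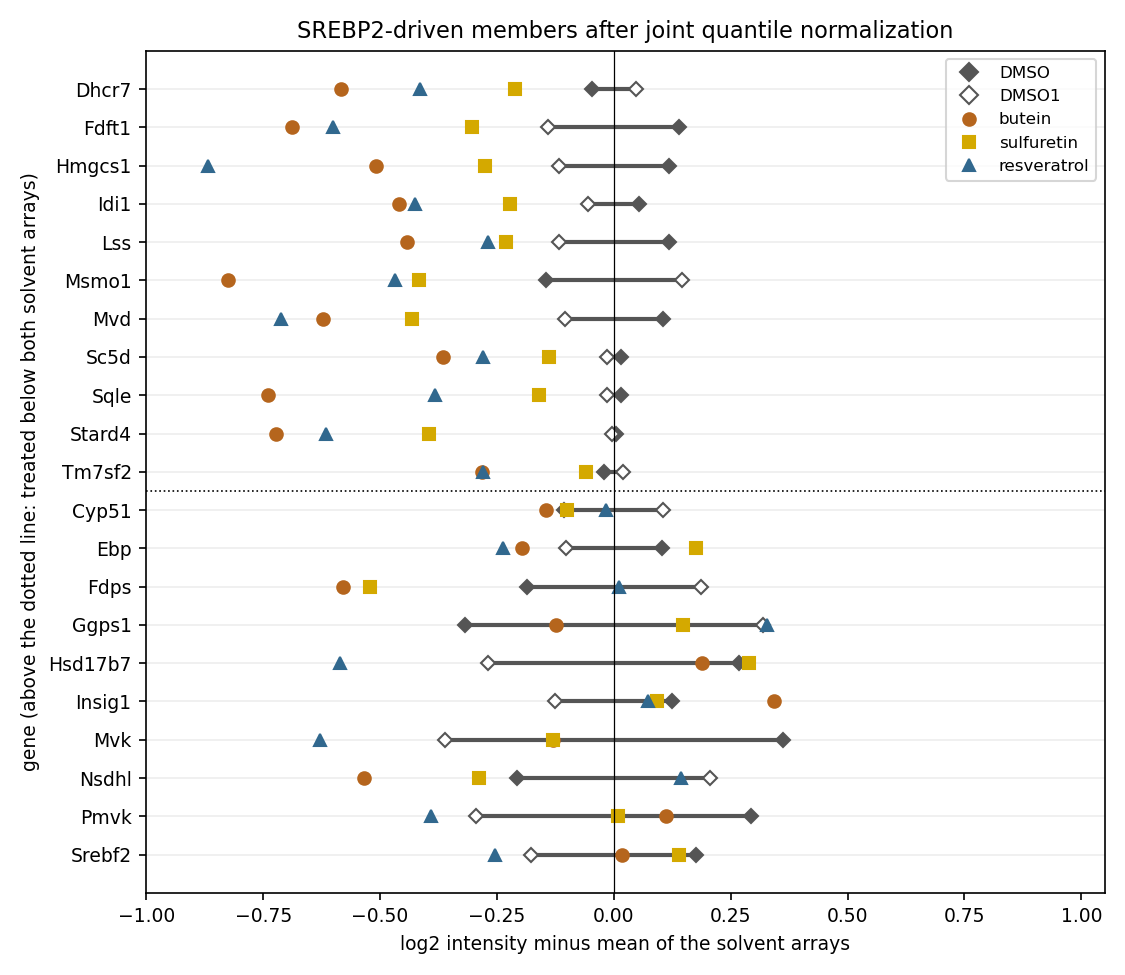
Log2 intensity after joint quantile normalization, minus the mean of the solvent arrays (x axis), for the 21 SREBP2-driven genes (y axis); diamonds joined by a bar are DMSO and DMSO1, other symbols the treated arrays. For the 11 genes above the dotted line every treated array lies to the left of both solvent arrays.

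Other probe sets of the same genes bear on each call. The 21 SREBP2-driven genes had 25 further probe sets above the floor. With butein 22 of them had the sign of the brightest one, 1 the opposite sign and 2 could not be compared because a value equalled its control. With sulfuretin 18 shared the sign, 0 were opposite and 7 had an equal value, and with resveratrol these counts were 17, 1 and 7. Of the 25, 10 were at least 1.5-fold lower with butein, 1 with sulfuretin and 5 with resveratrol. Several of the 10 belong to Hmgcs1, and the share of all probe sets past 1.5-fold was not computed. Probe sets of a gene read the same RNA and are not replicates.

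Further genes of sterol sensing, uptake and use were taken from a list of 41, of which 32 were above the floor. With butein 3 were at least 1.5-fold lower and 4 at least 1.5-fold higher, with sulfuretin 1 and 0, and with resveratrol 0 and 0. Over all genes these shares were 2.47% and 5.01%, 0.378% and 1.36%, and 0.362% and 0.338%. The medians of the list lay near 0, at -0.0088 with butein, 0 with sulfuretin and -0.07 with resveratrol. The lower ones with butein were Aacs, Srebf1 and Rdh11. Aacs activates acetoacetate for sterol and fatty acid synthesis, and read 815.3 in DMSO, 509.8 with butein, 483.0 with sulfuretin, 708.2 in DMSO1 and 524.2 with resveratrol. It was the gene past the criterion with sulfuretin, at 1.69-fold lower. Srebf1, the gene of the lipogenic SREBP1 and itself an LXR target, read 265.4 in DMSO, 163.8 with butein and 190.0 with sulfuretin, and 253.9 in DMSO1 against 215.2 with resveratrol. Rdh11, a retinol dehydrogenase, read 226.6 in DMSO, 147.3 with butein and 225.7 with sulfuretin, and 333.4 in DMSO1 against 238.1 with resveratrol.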

How the data were processed

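Total RNA of 5 samples was hybridised to Affymetrix mouse arrays. Values were deposited as linear intensities, made with RMA per the submitters' processing notes, which give no version here. Arrays were taken as 2 sets, DMSO with butein and sulfuretin, and DMSO1 with resveratrol. Those of the first set share a median intensity of 6.85. DMSO1 at 11.1 and resveratrol at 11.5 do not share a median, but the labels pair them. In the main comparisons a compound was set only against the solvent array of its set. Log2 was taken with no pseudocount.

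The platform annotation gives 1 gene for 34945 of the 45037 probe sets, several for 932 and none for 9160. Symbols were updated by gene ID through RefSeq (GRCm38.p6). The brightest probe set (mean log2 value) represents a gene. Genes whose highest value reached the median of mean log2 values (intensity 8.39) were counted, 12439 in all. A gene is called at 1.5-fold, a criterion set because earlier results of these data showed the members below 2-fold. Values within 1e-06 in log2 are equal. Members and lists were chosen with earlier results of these data known. The rule for named genes takes all members, and genes of the further list only where past 1.5-fold.

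Alternatives were folds of 1.2 and 2, no floor or the 75th percentile, the mean of probe sets, centring, joint quantile normalization, the other solvent array, and limma with DMSO and DMSO1 as replicates (1 residual degree of freedom). The count of genes outside the solvent gap and the count without overlap were chosen after seeing the data. Array number limits the precision. Tools were limma 3.58.1 in R 4.3.3, and pandas 2.3.3 with numpy 2.4.6 in Python 3.11.15.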

Additional observations from a re-analysis of the deposited data

How the results depend on the processing

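The median of the SREBP2-driven genes stayed below 0 for each compound under every alternative run. It moved by more than the solvent spread once, to -0.39 for resveratrol after joint normalization with the other solvent array. With that setting the LXR-driven median of sulfuretin turned to 0.016. Having no floor, the 75th percentile floor and centring could not move these medians. All 21 SREBP2-driven and 4 LXR-driven genes passed both floors, and the median of all genes was 0. Nor could these settings turn the direction of a single call. The 12 single calls past 1.5-fold kept their direction under all alternatives that could be computed, but 7 stayed past it with the mean of all probe sets and 6 with the other solvent array after joint normalization. At 2-fold the counts of members past the criterion were 0 for each compound, and at 1.2-fold they were 17 for butein, 13 for sulfuretin and 15 for resveratrol. Joint normalization gave 4 with resveratrol, all lower. With the other solvent array it gave 9 with resveratrol, 8 of them lower, and 2 with sulfuretin, both lower. No share of all genes past 1.5-fold was computed for these jointly normalized settings. The 75th percentile floor left 0 with sulfuretin, since it removes Npc1. Limma called 0 for each compound at an adjusted p under 0.05, with 0, 0 and 1 members at an unadjusted p under 0.05 for butein, sulfuretin and resveratrol. Except where stated the cause was not tested. No paired analysis was possible because each group holds 1 array.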

Other observations

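Among the further genes of the pathway, 4 of 32 were at least 1.5-fold higher with butein, as were 5.01% of all genes above the floor. Ube2g2, a ubiquitin-conjugating enzyme of endoplasmic reticulum protein degradation, read 78.7 in DMSO, 165.6 with butein and 95.2 with sulfuretin, and 141.2 in DMSO1 against 146.4 with resveratrol. It was 2.11-fold higher with butein. Gramd1b, which moves cholesterol from the plasma membrane to the endoplasmic reticulum, was 1.95-fold higher with butein, 1.07-fold lower with sulfuretin and 1.21-fold lower with resveratrol. Nus1, a subunit of the enzyme that makes dolichol precursors from isoprenoids, read 202.0 in DMSO, 315.5 with butein and 270.4 with sulfuretin, and 429.4 in DMSO1 against 388.6 with resveratrol. Lrp8, a lipoprotein receptor gene, went from 9.57 in DMSO to 15.2 with butein, near the floor of 8.39. These are single arrays with no test.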
